A study of Mus musculus with 4 samples.

Results

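Cytosolic ribosomal protein genes encode the proteins of the large and small subunits of the ribosome that translates messenger RNA outside mitochondria. They were compared here in the brains of wild-type and Bcas1 knockout mice. Members were the genes that a probe set of the array names alone and whose symbol starts with Rpl or Rps and a digit, or is Rplp0, Rplp1, Rplp2 or Rpsa. Kinase genes starting with Rps6k and pseudogene symbols were left out, and each gene was read from the probe set with the highest mean over the 4 arrays. The rule found 50 genes of the 18193 measured genes named in this way. Of these, 22 encode large subunit proteins, 21 encode small subunit proteins, 6 are paralogues (Rpl3l, Rpl39l, Rpl22l1, Rpl7l1, Rps27l and Rps4l), and Rps19bp1 encodes a protein that binds a ribosomal protein and is not part of the ribosome. The 50 genes lie on 17 chromosomes, per RefSeq (GRCm38.p6).

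The study hybridised brain RNA of 4 male C57BL/6 mice aged 8 to 9 weeks, 1 array per mouse, with 2 BCAS1 (+/+) wild-type and 2 BCAS1 (-/-) knockout mice bred from heterozygous parents. Bcas1 encodes a protein of myelinating oligodendrocytes, and the design asks how brain RNA levels differ without it. The labels give the brain as tissue and add the cerebrum in the description, and they do not say which part of the gene was disrupted. Levels are log2 values computed with RMA, so a difference of 1 is a 2-fold change.

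In every cell the ribosomal proteins are made in matched amounts and assemble with ribosomal RNA in the nucleolus, and they are among the most strongly transcribed genes of any tissue. Their messenger RNAs begin with a run of pyrimidines, the terminal oligopyrimidine or TOP motif, through which mTOR signalling and Larp1 control their translation. A few have paralogues that are used mainly in one tissue, such as Rpl3l in striated muscle and Rpl39l in the male germ line.

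The sequence around the transcription start is shown for 7 genes because the shared motif is found at the start of the messenger RNA. It sets bright members, among them the paralogue Rpl22l1, beside the dimmest paralogues, Rpl39l and Rpl3l. Each sequence covers 40 bases before and 20 bases from the start annotated in the RefSeq promoter table (GRCm38.p6). Capitals mark the longest unbroken run of C or T within 20 bases of that start on either side. Such a run need not open the messenger RNA. In Rpl39l and Rpl41 it lies wholly before the annotated start, and in Rpl3l it begins at base 10.
Rpl38: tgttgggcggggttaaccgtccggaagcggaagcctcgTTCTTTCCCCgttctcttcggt
Rps24: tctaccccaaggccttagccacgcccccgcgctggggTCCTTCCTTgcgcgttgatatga
Rpl13a: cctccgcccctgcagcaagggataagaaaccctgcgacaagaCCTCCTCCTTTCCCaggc
Rpl41: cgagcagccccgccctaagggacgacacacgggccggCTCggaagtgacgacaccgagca
Rpl22l1: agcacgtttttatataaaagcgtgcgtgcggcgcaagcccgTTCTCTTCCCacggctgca
Rpl39l: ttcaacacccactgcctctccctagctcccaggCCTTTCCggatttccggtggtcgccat
Rpl3l: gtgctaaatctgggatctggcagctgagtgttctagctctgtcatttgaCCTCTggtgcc
These lie at chr11:114668540-114668599 (plus strand) for Rpl38, chr14:24490638-24490697 (plus) for Rps24, chr7:45128726-45128785 (minus) for Rpl13a and chr10:128549149-128549208 (minus) for Rpl41. The paralogues lie at chr3:28805468-28805527 (plus) for Rpl22l1, chr16:10170188-10170247 (plus) for Rpl39l and chr17:24727786-24727845 (plus) for Rpl3l. Rps24 and Rpl3l each have 2 annotated starts, of which the first in the table is shown.

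The run of C and T was 10 bases in Rpl38, 14 in Rpl13a and 9 in Rps24, and it was 10 in the paralogue Rpl22l1. It was 7 in Rpl39l, 5 in Rpl3l and 3 just before the annotated start of Rpl41. Rps28, Rpl37a, Rpl6 and Rplp0, bright members whose sequences are not printed, had runs of 4, 5, 6 and 7. The promoter table held 52 promoters of 44 members. A run of at least 8 bases was present in 20 of them (38.5%), against 16.0% of all 32851 promoters in the table. The hexamer CTTTCC, searched on the coding strand in the same window and itself a stretch of such a run, was in 7 (13.5%) against 1.95% of all. The ETS family core TTCCGG, searched on both strands over the whole promoter sequence and able to share its first 4 letters with that hexamer, was in 28 (53.8%) against 14.9%. The letters GCCATC, a core of the YY1 motif, were in 8 (15.4%) against 14.1%, and TATAAA was in 6 (11.5%) against 13.6%, both on both strands. These matches describe the sequence only, and a run of C and T in this window does not by itself show a TOP motif. A gene with several annotated starts enters several times.

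The ribosomal protein genes were measured at the top of the array's range, and their median range over the 4 brains was 0.11, against 0.18 for all genes. At level 12 or above it was 0.08 for the members and 0.09 for all genes. Whether levels this high compress the differences between arrays was not tested. Of the 50 members, 34 (68.0%) had a mean level of at least 12, which 2.76% of all genes reached. The median member level was 12.55, against 7.68 for all genes. Levels of different genes depend on their probes as well as on RNA, so these values place each probe set within the array and do not rank the genes by abundance.

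**Figure D1:**
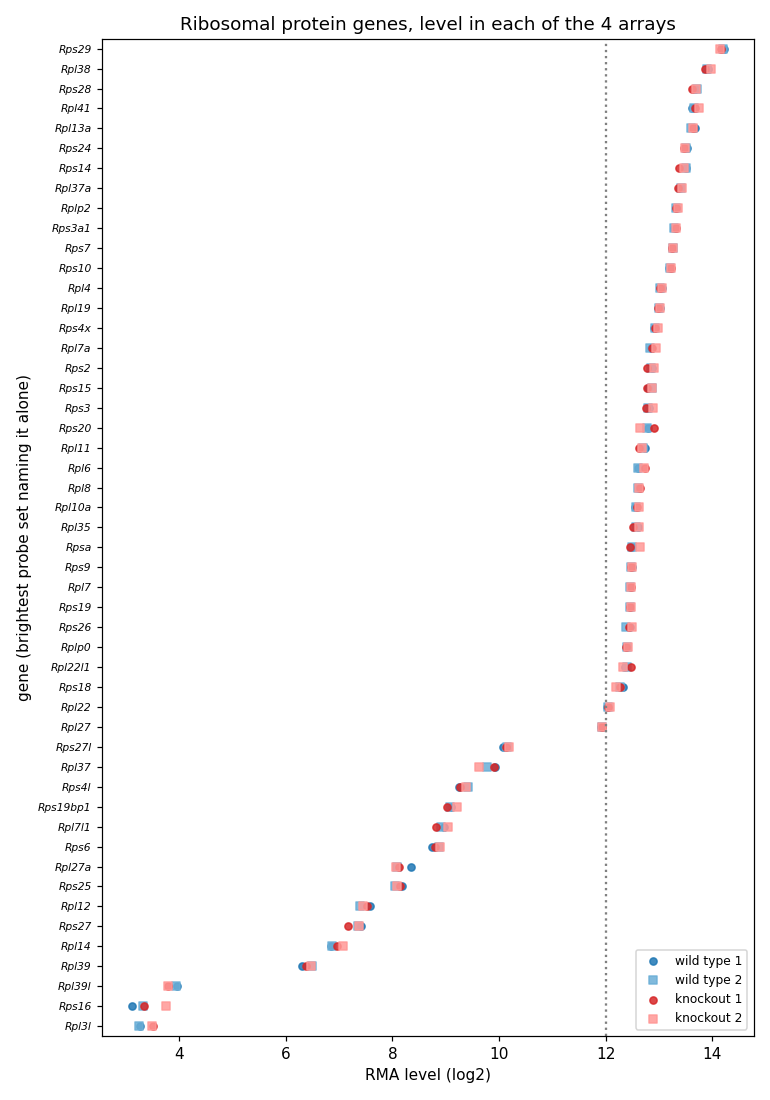
Level of each of the 50 members (RMA, log2; x axis) in the 2 wild-type arrays (blue) and the 2 knockout arrays (red), with genes ordered by mean level and a dotted line at 12. The 34 genes to the right of the line have symbols that nearly coincide, and the scatter between arrays is wider for several of the 16 genes below it.

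The brightest member was Rps29, a small subunit protein that binds zinc. It was at 14.22 and 14.20 in the wild-type mice and at 14.17 and 14.14 in the knockouts. Both knockout values lay just below both wild-type values, with a difference of -0.055 (SE 0.069). Rpl38, a large subunit protein known for its part in the translation of Hox messenger RNAs, was at 13.93 and 13.91 in the wild-type mice and at 13.87 and 13.97 in the knockouts, so that the wild-type values lay between those of the knockout. Rps28, a small subunit protein, was at 13.68 and 13.71 in the wild-type mice and at 13.63 and 13.70 in the knockouts, and the groups overlapped. Rpl41, the smallest protein of the large subunit, was at 13.63 and 13.65 in the wild-type mice and at 13.67 and 13.76 in the knockouts, with the groups not overlapping and a difference of 0.075 (SE 0.075). Rpl13a, also known for silencing inflammatory messenger RNAs outside the ribosome, differed by -0.0050 (SE 0.072). Rps24, mutated in some families with Diamond-Blackfan anaemia, differed by -0.035 (SE 0.069). The 6 brightest members thus lay within 0.075 of no difference, in both directions.

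The stalk proteins and other much-studied subunits had differences of -0.065 to 0.045. Rplp0, the base of the stalk that recruits elongation factors and a common reference gene, was at 12.40 and 12.40 in the wild-type mice and at 12.39 and 12.43 in the knockouts. The difference was 0.010, with a 95% confidence interval from limma of -0.17 to 0.19. Rplp2, which binds to Rplp0 as an acidic stalk protein, was at 13.33 and 13.32 in the wild-type mice and at 13.33 and 13.36 in the knockouts. Rpsa, the small subunit protein first described as a laminin receptor, was at 12.50 in both wild-type mice and at 12.45 and 12.64 in the knockouts, so that the knockout mice lay on either side of the wild type. Rpl11, which with Rpl5 and 5S ribosomal RNA can bind Mdm2 when assembly of the ribosome fails, was at 12.74 and 12.71 in the wild-type mice and at 12.63 and 12.69 in the knockouts. Both knockout values lay below both wild-type values, and the difference of -0.065 (SE 0.072) was within its error.

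No member passed the test between genotypes. In limma, fitted over all 45037 probe sets with Benjamini-Hochberg adjustment, 0 of 50 members had an adjusted p at or under 0.05, where 2 probe sets of the whole table did (0.00444%). The adjusted p was 1 for each member. At an unadjusted p under 0.05, 1 member was higher (Rpl3l) and 0 were lower, where 1.68% of all genes were higher and 1.07% lower. The median difference of the members was 0.010, against 0.0050 for all genes. Differences were positive for 27 members, negative for 20 and 0 for 3. With the second knockout array left out the median difference was -0.0050, and with the first left out it was 0.030, so its direction rested on the second knockout array. The medians of all genes with an array left out are not given here. The limma SE of the members ran from 0.068 to 0.16, and for the 34 bright members the 95% intervals reached from -0.29 to 0.30 at the extremes. With 2 mice per group a missing call does not show that the levels were equal.

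**Figure D2:**
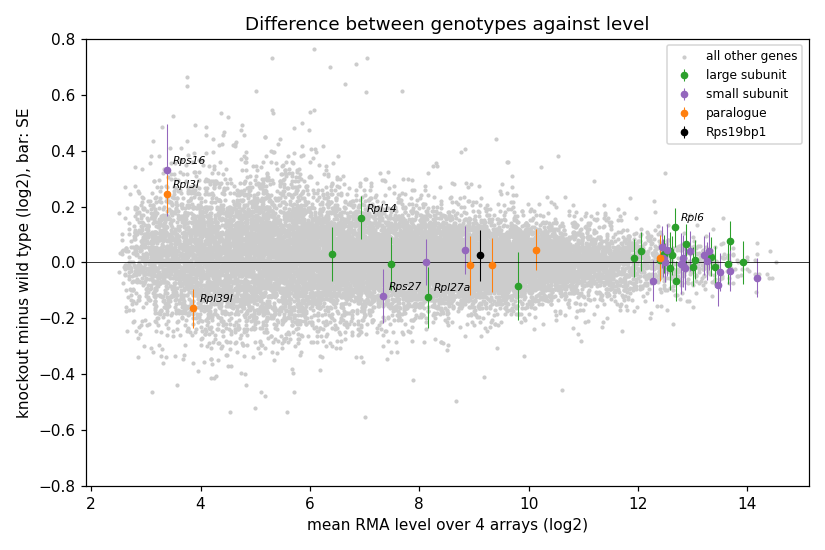
Difference between genotypes (knockout minus wild type, log2; y axis, bars are the limma SE) against mean level over 4 arrays (log2; x axis) for large subunit genes (green), small subunit genes (purple), paralogues (orange), Rps19bp1 (black) and all other genes (grey). The axis stops at 0.8 on either side, which leaves out 17 other genes; among members at level 12 or above the differences run from -0.080 to 0.12, and Rps16 has the largest of all at 0.33.

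Among the bright members Rpl6 had the largest difference. This large subunit protein was at 12.61 and 12.60 in the wild-type mice and at 12.74 and 12.72 in the knockouts. The groups did not overlap, and the means were 12.61 ± 0.0071 and 12.73 ± 0.014 (SD, n = 2 each), a difference of 0.12 (SE 0.069). Rps14, a small subunit protein known from the loss of a chromosome arm in human blood disorders, had the largest difference in the other direction among bright members. It was at 13.50 in both wild-type mice and at 13.37 and 13.47 in the knockouts, a difference of -0.080 (SE 0.076). Without the first knockout array it was -0.030, and other bright members, among them Rps18 at -0.10 and Rps29 at -0.070, were further below 0. The order thus rested on that array. Of the 34 bright members, 1 (Rpl6) differed by more than 0.1, which is 2.94% of them, against 7.57% of the 502 genes at that level. Rpl7a, a large subunit protein, was at 12.86 and 12.84 in the wild-type mice and at 12.88 and 12.95 in the knockouts, and Rps18, at the head of the small subunit, at 12.33 and 12.27 against 12.27 and 12.20. The former pair of groups did not overlap and the latter met at 12.27. The median absolute difference was 0.025 in the bright members and 0.035 in those 502 genes.

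Groups that did not overlap were counted in each direction. Both knockout values lay above both wild-type values in 13 of 50 members (26.0%), where 15.5% of all genes did, and below them in 5, where 12.8% did. Of the 34 bright members, 9 (26.5%) were higher in this way and 4 (11.8%) lower, where 15.9% and 20.3% of the genes at level 12 or above were. The 13 were Rpl6, Rpl7, Rpl7a, Rpl8, Rpl10a, Rpl14, Rpl22, Rpl27 and Rpl41 of the large subunit, Rps3a1, Rps10 and Rps16 of the small subunit, and Rpl3l. In 7 of them the difference was under 0.05, and in Rpl27, at 11.92 and 11.93 in wild type and 11.94 in both knockout mice, the groups were separated by 0.01, the last decimal of the table. The 5 lower members were Rps29, Rps24, Rps14, Rpl11 and Rpl39l. By subunit, 9 of 22 large subunit genes and 3 of 21 small subunit genes were higher without overlap, and 1 and 3 were lower. Whether the subunits differ was not tested. Leaving out 1 array compares 2 values with 1, which separates groups more often. Dropping the first knockout mouse gave 30 members higher and 10 lower, where 44.4% and 25.4% of all genes were. Dropping the second gave 15 and 19, where 28.7% and 39.8% of all genes were. Dropping the first wild-type mouse gave 19 and 9 (all genes 26.9% and 26.6%), and dropping the second gave 19 and 13 (all genes 31.6% and 24.3%).

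The second knockout array held the highest value in 23 of 50 members (46.0%), where it did so in 37.7% of all genes, and in 17 of the 34 bright members, where it did so in 23.9% of the genes at that level. The first knockout array held the lowest value in 17 of 50 members (34.0%), against 34.3% of all genes, and in 14 of the 34 bright ones (41.2%), against 27.1% of the genes at that level. The median deviation of the bright members from their 4-array mean was 0.021 in the second knockout array and -0.0088 in the first, and it was -0.0037 and -0.0075 in the wild-type arrays. For the genes at that level it was -0.0025 in the second knockout array and 0 in the first. Over all 50 members it was 0.025 and -0.010 in these arrays, and over all genes 0.0275 and -0.020. Arrays that tied were not counted. Among bright members the second knockout array was thus most often alone at the top and the first most often alone at the bottom. The median SD between mice was 0.014 in wild type and 0.042 in the knockout over the 50 members, and 0.050 and 0.071 over all genes. At level 12 or above it was 0.014 and 0.035 for the members and 0.021 and 0.042 for all genes. Rps20, a small subunit protein, had the widest knockout spread among bright members, at 12.79 and 12.78 in the wild-type mice and at 12.91 and 12.65 in the knockouts. In this gene the first knockout array was the highest and the second the lowest, the reverse of the more frequent order.

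**Figure D3:**
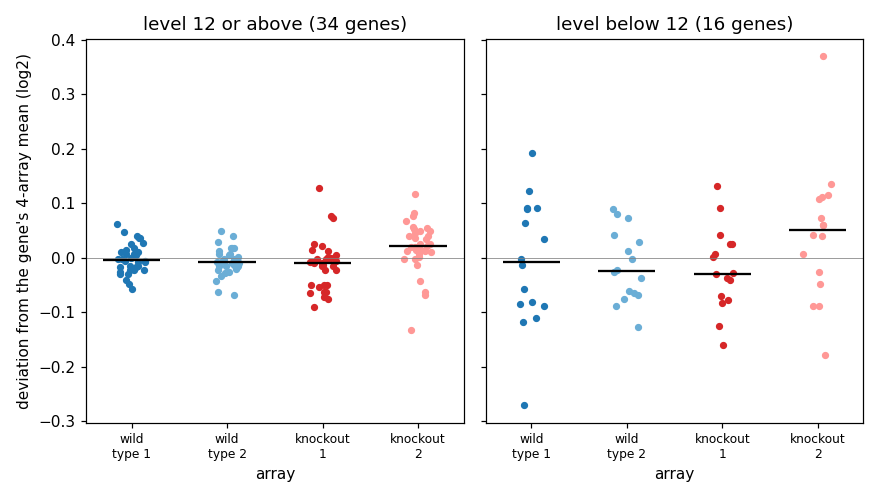
Deviation of each member from its own mean over the 4 arrays (log2; y axis) in each array (x axis), for the 34 members at level 12 or above (left) and the 16 below it (right); horizontal lines are medians. At the left the median is 0.021 in the second knockout array and -0.0088 in the first.

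The arrays had medians of 6.49 to 6.51, and the excess of the actin 3' over the 5' control, which grows with RNA breakage, ran from 1.09 to 1.12 in the wild-type mice and from 1.14 to 1.15 in the knockouts. The target gene Bcas1, by its brightest probe set, was at 12.17 and 12.21 in the wild-type mice and at 11.05 and 10.75 in the knockouts (difference -1.29, SE 0.12, adjusted p = 0.742 in limma), lower in both knockouts. Its 2 dim probe sets were higher in both knockouts, by 0.77 (SE 0.18) at a mean level of 5.74 and by 0.64 (SE 0.15) at 5.63, and the mean of all 3 differed by +0.038, so the check of the knockout rests on the bright one. Neuronal markers (4 of 4 measured) lay at 10.73 to 14.14 and oligodendrocyte markers (3 of 4 measured) at 9.46 to 14.45, and 1 listed oligodendrocyte marker was not measured. Neuronal sums were 51.24 and 51.17 for wild type and 51.02 and 51.14 for the knockouts. Tubb3 differed by -0.15 with both knockouts lower, and Snap25, Syt1 and Rbfox3 by -0.040, 0.035 and 0.030. Oligodendrocyte sums were 34.34 and 34.21 against 34.58 and 34.02, and Mbp, Mog and Mag differed by -0.055, 0.015 and 0.065. The 4 astrocyte markers summed to 44.84 and 44.97 for wild type and to 45.58 and 44.96 for the knockouts. Of these, Gfap was higher in both knockouts, by 0.285, and Aqp4, Slc1a2 and Slc1a3 differed by 0.085, -0.010 and 0.0050. Microglia sums were 37.01 and 36.93 against 36.73 and 36.86, and endothelial sums 15.51 and 15.55 against 15.48 and 15.76. Of the microglia markers, Cx3cr1 differed by -0.115 with both knockouts lower, and Csf1r, Aif1 and P2ry12 by 0.0050, 0 and -0.065. Choroid plexus sums were 29.50 and 29.66 against 29.72 and 29.79. The 3 nasal tissue markers were all highest in the second knockout array, with a summed level of 24.37 there, while the sums were 12.20 and 13.46 for wild type and 12.05 for the first knockout mouse. The 4 measured blood markers summed to 23.26 and 22.27 for wild type and to 24.23 and 26.40 for the knockouts. The excess lay in the neutrophil genes S100a8 and S100a9, with differences of 1.17 and 1.29 and both knockouts higher, while the red-cell genes Hba-a1 and Alas2 differed by 0.010 and 0.075 and overlapped. The sums for the 3 pituitary markers were 18.86 and 19.28 for wild type and 19.47 and 20.79 for the knockouts. All 3 were highest in the second knockout array. Gh differed by 0.71 with both knockouts higher, while Prl and Pomc differed by 0.245 and 0.105 and overlapped. The part of these transcripts in the ribosomal protein values was not tested. In bulk RNA, fewer cells of a type and less RNA per cell cannot be told apart.

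Ribosomal RNA itself is present on the array through control probe sets for 18S RNA, the RNA of the small subunit, which were not part of the tests. The middle probe set was at 13.51 and 13.42 in the wild-type mice and at 13.39 and 13.42 in the knockouts. The 3' probe set was at 13.56 and 13.49 in the wild-type mice and at 13.49 and 13.55 in the knockouts, and the 5' probe set at 13.72 and 13.63 against 13.60 and 13.66. The first wild-type array was highest in all 3, and the genotypes overlapped in each. The labelling primes at poly(A) tails, which 18S RNA lacks, so these signals do not measure the amount of ribosomes.

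Rpl3l and Rpl39l, the paralogues known from other tissues, were near the bottom of the array's range. Rpl3l, the striated muscle paralogue of Rpl3, was at 3.26 and 3.25 in the wild-type mice and at 3.51 and 3.49 in the knockouts, at percentile 3.60 of all genes. The difference of 0.24 (SE 0.069) had an unadjusted p of 0.018 and an adjusted p of 1 in limma. The deposited values carry no detection calls at any level. Rpl39l, the germ line paralogue of Rpl39, was at 3.96 and 3.94 in the wild-type mice and at 3.79 and 3.78 in the knockouts, at percentile 7.27, a difference of -0.17 (SE 0.069). The groups did not overlap in either gene, and the directions were opposite. Whether either transcript is present in these brains cannot be read from levels this low.

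The other paralogues were measured at middle or high levels. Rpl22l1, the paralogue of Rpl22, was at 12.37 and 12.40 in the wild-type mice and at 12.47 and 12.33 in the knockouts, with the knockout mice on either side of the wild type. Rpl22, which binds to RNA and can restrain Rpl22l1, was at 12.02 and 12.04 in the wild-type mice and at 12.05 and 12.09 in the knockouts, a difference of 0.040 (SE 0.070). Rps27l, a paralogue of Rps27 that p53 can induce, was at 10.08 and 10.15 in the wild-type mice and at 10.14 and 10.18 in the knockouts, with overlap. Rps4l was at 9.25 and 9.42 in the wild-type mice and at 9.26 and 9.39 in the knockouts, and its X-linked relative Rps4x at 12.91 and 12.93 in the wild-type mice and at 12.93 and 12.99 in the knockouts. Rpl7l1 was at 8.97 and 8.91 in the wild-type mice and at 8.81 and 9.05 in the knockouts, and Rpl7 at 12.45 in both wild-type mice and 12.48 in both knockout mice. Rps19bp1, which binds Rps19, was at 9.10 and 9.08 in the wild-type mice and at 9.02 and 9.21 in the knockouts.

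Several core members were dim by the probe set that names them alone and bright by another that names them with further loci. Many ribosomal protein genes have processed pseudogenes, and a further 110 probe sets name a ribosomal protein gene together with pseudogenes or other loci. They cover 46 symbols, of which 15 are also members and 31 are not, so that 81 symbols are covered by either kind. With the brightest set of either kind, groups did not overlap in 18 of the 81 with the knockout higher and in 9 with it lower, where 15.5% and 12.9% of all symbols read that way did so. In 9 of the 15 members with both kinds the shared probe set was brighter by more than 3. Rps16, a small subunit protein, was at 3.11 and 3.32 in the wild-type mice and at 3.34 and 3.75 in the knockouts by the probe set that names it alone, a difference of 0.33 (SE 0.16) that was 0.125 with the second knockout array left out. Its brightest shared probe set measured 13.09 in both wild-type mice and 13.13 in both knockout mice, a difference of 0.040 (SE 0.068).

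**Figure D4:**
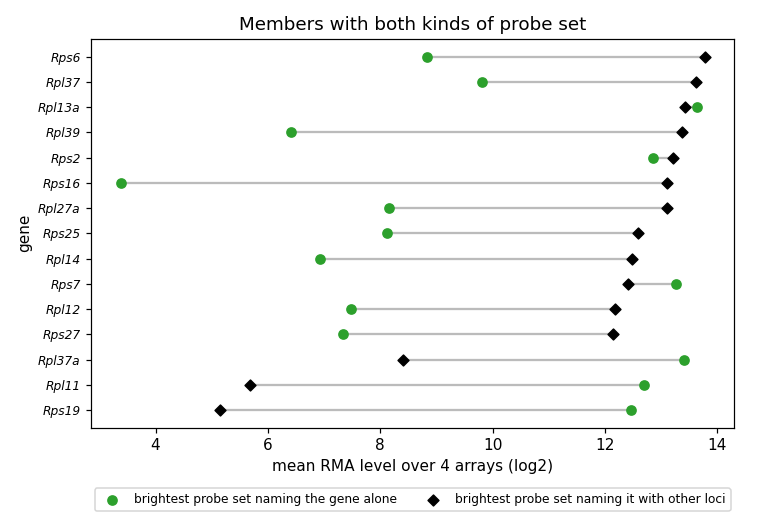
Mean level over 4 arrays (log2; x axis) of the brightest probe set naming the gene alone (green circles) and of the brightest naming it with pseudogenes or other loci (black diamonds), for the 15 members (y axis) with both. Rps16 lies at 3.38 by the first and 13.11 by the second, and Rps6 at 8.83 and 13.78.

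Similar gaps between the 2 kinds of probe set were seen in other dim members. Rpl14, a large subunit protein, was at 6.85 and 6.86 in the wild-type mice and at 6.96 and 7.07 in the knockouts by its own probe set, a difference of 0.16 (SE 0.077), and its brightest shared set was at 12.49 with a difference of 0.035. Rpl39, which lines the exit tunnel for the growing protein, was at 6.30 and 6.49 in the wild-type mice and at 6.38 and 6.47 in the knockouts, against 13.37 for the shared set, with a difference of -0.020. Rps27 was at 7.42 and 7.36 in the wild-type mice and at 7.17 and 7.37 in the knockouts, and the shared set was at 12.15 with a difference of 0.0050. Rpl12, a protein at the base of the stalk, was at 7.58 and 7.40 in the wild-type mice and at 7.53 and 7.44 in the knockouts. Its shared set was at 12.12 and 12.14 in the wild-type mice and at 12.25 and 12.22 in the knockouts, a difference of 0.11 (SE 0.069). Rpl27a had the largest negative difference of the core members, at 8.35 and 8.09 in the wild-type mice and at 8.12 and 8.07 in the knockouts, and its difference of -0.12 (SE 0.11) came mostly from the first wild-type array. Its shared set was at 13.11 with a difference of -0.015. Rpl37 differed by -0.085 (SE 0.12) alone and by -0.025 in its shared set.

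Rps6, the small subunit protein phosphorylated by S6 kinase downstream of mTOR, had 2 probe sets of its own and 9 shared with a pseudogene. Its own brightest was at 8.74 and 8.87 in the wild-type mice and at 8.80 and 8.90 in the knockouts. The 4 brightest shared sets were at 13.08 to 13.78, with differences of 0.020 to 0.055. A further 4 shared sets at 7.81 to 9.74 differed by 0.13 to 0.28, and the first knockout array was highest in each of these. One of them was at 9.52 in both wild-type mice and at 9.82 and 9.60 in the knockouts, and another was at 9.40 and 9.71 in the wild-type mice and at 10.11 and 9.56 in the knockouts.

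Rpl5, the partner of Rpl11 in the 5S particle, was measured by 3 probe sets, all shared with a pseudogene, so it is no member. The brightest was at 13.12 and 13.15 in the wild-type mice and at 13.17 and 13.23 in the knockouts, a difference of 0.065 (SE 0.072). The 2 dimmer sets measured 9.58 and 9.54 against 9.83 and 9.72, and 9.53 and 9.50 against 9.85 and 9.74. Their differences of 0.22 (SE 0.078) and 0.28 (SE 0.078) had unadjusted p of 0.043 and 0.017 and an adjusted p of 1 in limma, with both knockout mice above both wild-type mice. Which transcript or locus the dimmer sets read is not given in the table. Rplp1, the other acidic stalk protein, was measured by 1 shared set at 13.86 and 13.82 in wild type and the same values in the knockout. Rpl10, which joins the large subunit late in its assembly, was at 13.18 and 13.20 in the wild-type mice and at 13.16 and 13.17 in the knockouts by its brighter set. Rpl36al and Rpl36a were named together and cannot be told apart, and their brighter set differed by 0.040 (SE 0.080) with overlapping groups.

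Probe sets of the same gene gave different values for the genotypes, more so where they were dim. Of the members, 24 had more than 1 probe set of their own, among 106 such sets in all. In Rps24 the 4 sets above 12 had differences of -0.040 to 0.050, while a set at 6.95 was at 7.14 and 7.03 in the wild-type mice and at 7.03 and 6.61 in the knockouts, a difference of -0.27, and one at 5.30 differed by -0.19. In Rps20 the bright pair differed by -0.0050 and -0.025, and the dim pair, at 6.37 and 5.86, by 0.17 and 0.35. In Rps3, a small subunit protein at the entry of the messenger RNA channel, the 3 sets at 12.81, 8.23 and 5.52 differed by 0.015, 0.095 and 0.27. Of the 57 single-gene sets at level 12 or above, 1 (1.75%) differed by more than 0.1, against 19 of the 49 below it (38.8%). Among the shared sets the counts were 1 of 71 and 18 of 39. Over all tested probe sets 32.8% did. Groups did not overlap in 24 of the 110 shared sets with the knockout higher and in 8 with it lower, where 13.9% and 13.2% of all probe sets did so.

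Among genes that work with the ribosomal proteins, 0 passed the limma test over all probe sets, where 2 probe sets of the whole table did (0.00444%). The lists held 1, 18, 18, 30, 8 and 76 measured genes. At an unadjusted p under 0.05 in limma, 1 of them was lower (Snhg4) and 0 were higher, where 1.07% of all genes were lower and 1.68% higher. Of the elongation factors and other TOP transcripts, 18 of 19 were measured, with a median difference of 0.0075, 10 positive and 8 negative. Npm1, a nucleolar chaperone, was at 11.79 and 11.75 in the wild-type mice and at 11.97 and 11.76 in the knockouts. Naca, which binds nascent proteins at the ribosome, differed by -0.065 (SE 0.069), and Eif3e, an initiation factor subunit, by 0.050 (SE 0.069). Of 4 ribosomal protein symbols outside the rule, Fau alone was measured by a probe set of its own, and it was at 12.89 and 12.90 in the wild-type mice and at 12.85 and 12.93 in the knockouts.

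Of 22 genes of initiation and mTOR signalling, 18 were measured, with a median difference of 0.038, 13 positive and 4 negative. Eif4ebp1, an inhibitor of cap-dependent initiation that mTOR switches off, was at 6.31 and 6.23 in the wild-type mice and at 6.37 and 6.53 in the knockouts, a difference of 0.18 (SE 0.090) that was 0.10 without the second knockout array. Its relative Eif4ebp2, the main form in brain, was at 7.53 and 7.52 in the wild-type mice and at 7.23 and 7.51 in the knockouts, a difference of -0.16 (SE 0.11) that was -0.015 without the first knockout array. Tsc2, an upstream inhibitor of mTOR, differed by 0.080 (SE 0.074), and by 0.035 without the second knockout array.

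All 30 ribosome biogenesis genes were measured, with a median of 0.010, 16 positive and 14 negative. Nmd3, which exports the large subunit from the nucleus, was at 8.77 and 8.69 in the wild-type mice and at 8.96 and 8.86 in the knockouts, a difference of 0.18 (SE 0.080) that was 0.069 as the mean of its probe sets and 0.020 by probe sets with no suffix letter. Polr1a, the largest subunit of RNA polymerase I, differed by 0.16 (SE 0.082), by 0.085 without the second knockout array and by 0.037 as the mean of its probe sets. Ncl, nucleolin, differed by 0.12 (SE 0.085), by 0.045 without the first knockout array and by 0.068 as the mean of its probe sets. The 8 hosts of small nucleolar RNAs had a median of -0.022, with 5 negative. Snhg4 was at 9.20 and 9.17 in the wild-type mice and at 9.02 and 8.96 in the knockouts, a difference of -0.20 (SE 0.072) with an unadjusted p of 0.044 and an adjusted p of 1 in limma, and Snhg8 differed by -0.12. Snhg1 differed by 0.12, by 0.050 without the first knockout array and by 0.035 as the mean of its probe sets.

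The ribosomal proteins of mitochondria, a separate set that builds the ribosome of that organelle, had a median difference of -0.0050 over 76 genes, 36 positive and 39 negative. Mrpl50 was at 8.47 and 8.59 in the wild-type mice and at 8.77 and 8.66 in the knockouts, a difference of 0.18 (SE 0.086), and Mrps27 and Mrps25 differed by 0.17 and -0.17, the latter by -0.095 without the first knockout array. In these genes 13 were higher without overlap and 8 lower, where 15.5% and 12.8% of all genes were. The share that differed by more than 0.1 was 13.2%, against 7 of the 50 cytosolic members and 26.7% of all genes.

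**Figure D5:**
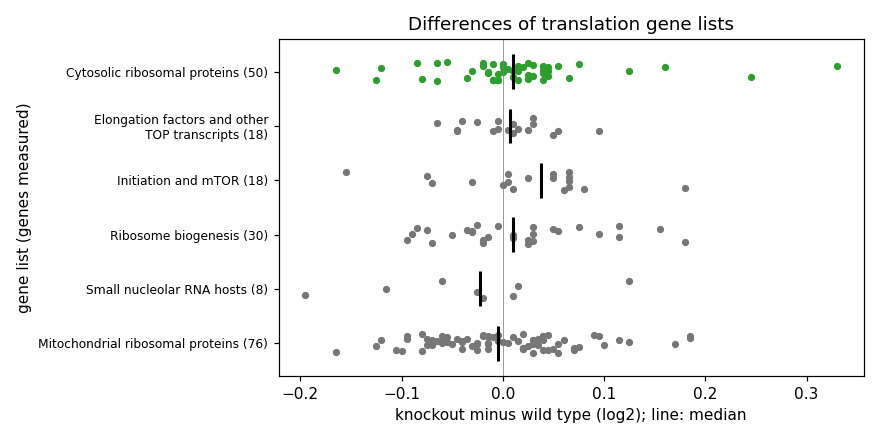
Difference between genotypes (knockout minus wild type, log2; x axis) of each gene in the cytosolic ribosomal protein set (green) and in 5 other translation lists (grey; y axis), with the number of genes measured in brackets and a black line at each median. The medians lie between -0.022 and 0.038.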

How the data were processed

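RNA from 4 mouse brains was hybridised to 1-colour Affymetrix arrays, after labelling of 100 ng of total RNA with a 3' IVT kit, per the labels' protocols. The deposited log2 values were made by the authors with RMA, according to the submitters' processing notes. The sources used here do not name the program or settings. Values carry 2 decimals and no detection calls. Arrays have no depth, and their number limits the precision.

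Of 45101 rows, 64 controls were set aside. The platform annotation gave 1 gene for 34945 probe sets, several for 932 and none for 9160. All 50 members matched RefSeq by Entrez number, with 0 symbols changed. The genotypes were compared with limma 3.58.1 under R 4.3.3 (lmFit, then eBayes; two-sided), and p-values were adjusted by Benjamini-Hochberg across 45037 probe sets. Residual degrees of freedom were 2 and prior ones 2.74. With 2 mice against 2, exact permutation gives no p below 0.333. The fit was tested on simulated data. Labels describe the replicates as separate mice.

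The members and lists were chosen with earlier results of these data known, so lists are described without a test. Named genes were the 6 largest differences each way, the 6 brightest members, those below the gene median, paralogues with their main copies, a few stalk and assembly proteins, and up to 3 genes of each other list by smallest p. Others (such as Rps20, Rps3 and Rpl27), the promoter motifs and the level of 12 were chosen after values were seen. Alternatives covered array centring, a second quantile normalization, dim probe sets, the variance model, a replicate block, leaving out each array, and the choice of probe set.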

Additional observations from a re-analysis of the deposited data

How the results depend on the processing

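With 2 mice per group the limits are wide, and differences of dim probe sets are compressed and cannot be separated from background. Whether differences are also compressed at the top of the array's range, where most members lie, was not tested. In each alternative run, 0 ribosomal protein genes were called, with the median difference between -0.0050 and 0.030. The whole table gave 1 call with dim probe sets left out, 10 with an intensity trend and robust variance, and 0 with any array left out. The mouse numbers do not pair the animals by any label, and the deviations of same-numbered mice correlated at 0.24 over probe sets. The replicate block gave 0 calls in the whole table. Leaving out each array in turn gave median differences of -0.0050 to 0.030, and groups not overlapping in 15 to 30 members higher and 9 to 19 lower, where 26.9% to 44.4% and 24.3% to 39.8% of all genes were. Probe sets with no suffix letter covered 27 members, with 6 higher and 1 lower. The shares of all genes read by such probe sets were not computed. The counts of 6 and 1 therefore cannot show whether the members differ from other genes in this setting. Including probe sets that name several genes gave 18 higher and 9 lower among 81 symbols. Of all symbols read that way, 15.5% were higher and 12.9% lower. These 2 settings cover fewer and more genes than the main rule.

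For 48 named genes, 464 of 505 values under alternatives kept their sign and side of the threshold, 14 had a difference of 0 as reported or under the alternative, 26 changed sign and 1 passed. With the intensity trend limma gave Bcas1 an adjusted p of 0.038. The mean of its 3 probe sets turned its difference from -1.29 to +0.038. Fau was 0.0050 with centred arrays and 0.0019 with repeated quantile normalization, Rpl12 0.0050 and 0.0088, Rpl13a 0.0050 with centred arrays, and Rpl7l1 0.063 as a mean of its probe sets. The cause was not tested. Leaving out each array in turn gave differences of -0.045 to 0.035 for Fau, -0.010 to 0.20 for Npm1, -0.095 to 0.085 for Rpl12, -0.040 to 0.030 for Rpl13a, -0.055 to 0.085 for Rpl22l1, -0.255 to 0.0050 for Rpl27a and -0.22 to 0.050 for Rpl37. They were -0.065 to 0.125 for Rpl39, -0.13 to 0.11 for Rpl7l1, -0.010 to 0.030 for Rplp0, -0.065 to 0.0050 for Rps28, -0.095 to 0.075 for Rps4l, -0.020 to 0.11 for Rps6 and -0.050 to 0.14 for Rpsa.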
